A study of Mus musculus with 12 samples.

Results

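Sphingolipids and their galactose-carrying branch, the galactolipids, were followed here through 10 genes in the medial prefrontal cortex (mPFC) of mice after chronic social defeat (CSD) and of homecage (HC) mice. A gene was represented by a probe set annotated to that gene alone, and where a gene had several such probe sets the brightest over the 12 arrays was taken. All 10 genes (Ugt8a, Fa2h, Gltp, Gal3st1, Cers2, Sptlc1, Sptlc2, Degs1, Sgms1 and Galc) had 1 such probe set with every value above system noise, among 17656 named genes measured. The CSD group held 6 wild type male C57BL/6 mice, each housed beside an aggressive CD-1 male for 14 days with 5 min of direct contact per day, and killed 24 h after the last encounter. The CSD mice had also met behavioral criteria of social avoidance and anxiety-like behavior, so they stand for mice with that response and not for all defeated mice. The HC group held 6 wild type male mice kept in group housing. Both groups were adult, and no exact age was found in the sources. Brains of both groups were perfused with saline, the mPFC was dissected with the white matter of the forceps minor as its boundary, and 200 ng of total RNA per mouse was hybridized to 1 Affymetrix Mouse Gene 1.0 ST array.

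Ceramide, the common precursor of sphingolipids, is made from serine and a fatty acyl chain and is then converted to sphingomyelin, to glucose-carrying lipids or to galactosylceramide. Oligodendrocytes, the cells that wrap axons in myelin, make large amounts of galactosylceramide and of its sulfated form, sulfatide. Many of these myelin lipids carry very long and hydroxylated acyl chains.

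In CSD mice the transcripts of the galactosyltransferase Ugt8a, the hydroxylase Fa2h, the glycolipid carrier Gltp and the very long chain ceramide synthase Cers2 were 18.3% to 28.9% lower than in HC mice, and that of the serine palmitoyltransferase subunit Sptlc2 was 11.2% lower. The sulfotransferase Gal3st1, the subunit Sptlc1, the desaturase Degs1, the sphingomyelin synthase Sgms1 and the degrading enzyme Galc had log2 differences (CSD minus HC) between −0.09 and 0.02. The mean was lower in CSD mice for 9 of the 10 genes, where 57.1% of all named genes had a lower mean. None of the 10 passed an adjusted p under 0.05 (limma, Benjamini-Hochberg over all probe sets kept) with a fold change of at least 1.2, and none did with the methods' t-test under the same adjustment. Of all named genes likewise 0% passed as lower in CSD. At an unadjusted p under 0.05, 5 of the 10 genes were lower in CSD (Ugt8a, Fa2h, Gltp, Cers2 and Sptlc2) and 0 were higher, against 6.52% of named genes lower and 1.89% higher. The methods' t-test also gave 5. In 4 of the 10 (Fa2h, Gltp, Cers2 and Sptlc2) every CSD mouse lay below every HC mouse, as in 0.935% of named genes. The median log2 difference over the 10 genes was −0.13, against −0.01 over all named genes. The 10 genes were chosen with earlier results of these data known. Their excess over the shares of all named genes was therefore partly fixed in advance and gives no independent support.

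**Figure D1:**
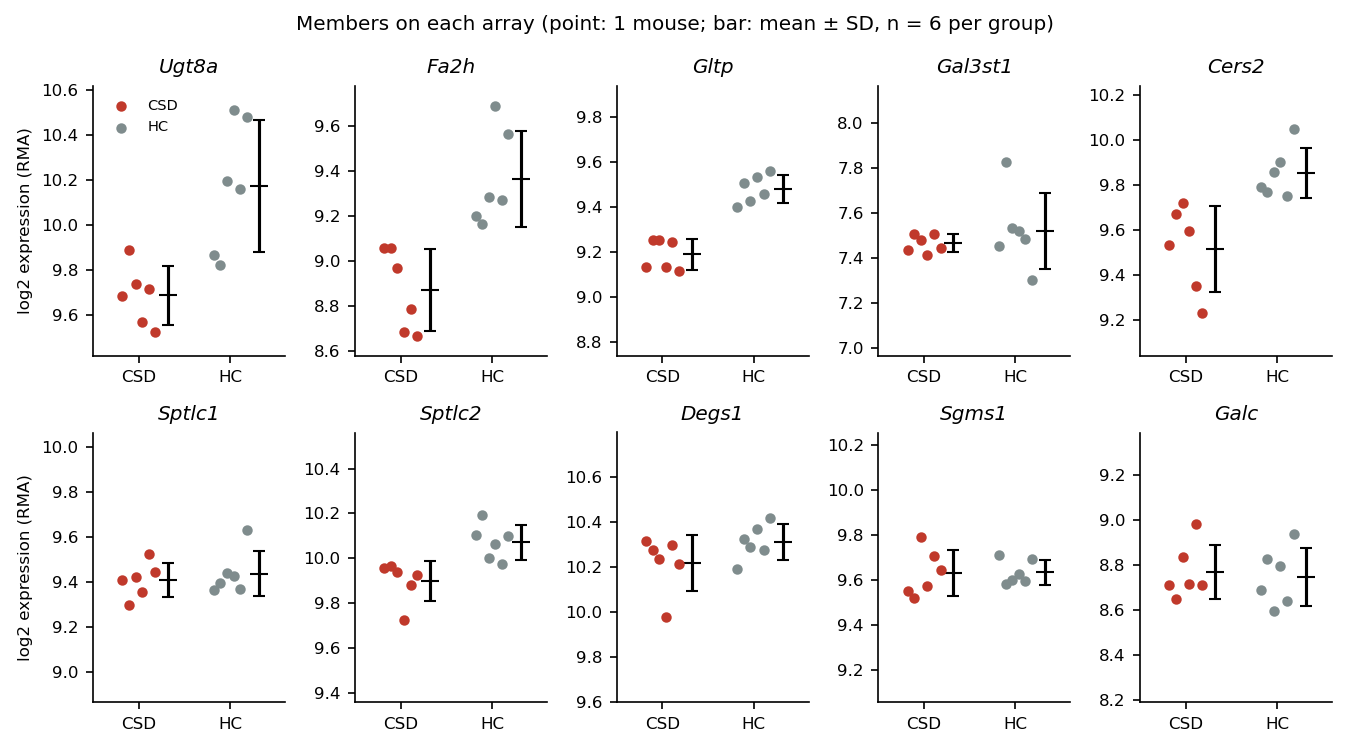
Log2 expression (RMA, vertical axis) of each of the 10 genes in 6 CSD and 6 HC mice, 1 point per mouse, with the mean ± SD as a bar and panels that span equal log2 ranges. The CSD and HC points are separate for Fa2h, Gltp, Cers2 and Sptlc2, nearly separate for Ugt8a, and mixed for the other 5 genes.

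The arrays resembled each other, with a median correlation within the group of 0.991 to 0.996. HC replicates 6 and 2 had the lowest values of this measure, 0.991 and 0.992. With both left out, 5 of the 10 genes were still lower at an unadjusted p under 0.05, 8 had a lower mean and 0 passed the adjusted threshold. Cell type markers were then read, which can show brain tissue but cannot check the mPFC label. All 10 neuron markers examined were above noise, and their summed level, log2 15.86 to 15.90 in CSD and 15.86 to 15.91 in HC mice, was nearly the same in both groups. Mature oligodendrocyte markers were present in every mouse and were lower in CSD, as described further on.

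The galactolipid branch starts with Ugt8a, the galactosyltransferase that joins galactose to ceramide. Its log2 value was lowest at 9.52, had a median of 9.70 and was highest at 9.89 in CSD mice, against 9.82, 10.18 and 10.51 in HC mice. Of the CSD mice 5 lay below the lowest HC mouse, and the ranges met only where CSD replicate 6 reached above HC replicates 1 and 2. The difference was −0.49 (SE 0.12, 95% confidence interval −0.74 to −0.23), a level 28.6% lower in CSD than in HC mice. Its limma adjusted p was 0.219 (unadjusted 0.00137), and a two-sided exact permutation test over the 924 splits of the arrays gave p = 0.00649. The mean was 9.69 ± 0.13 in CSD and 10.17 ± 0.29 in HC mice (SD, n = 6 each), so that the spread was larger among HC mice.

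Fa2h, the hydroxylase that puts the 2-hydroxyl group on fatty acids destined for myelin galactolipids, had a lowest value of 8.67, a median of 8.88 and a highest value of 9.06 in CSD mice, against 9.16, 9.28 and 9.69 in HC mice. All CSD mice lay below all HC mice. The difference of −0.49 (SE 0.10, interval −0.72 to −0.27) equalled that of Ugt8a in size, a level 28.9% lower in CSD. The limma adjusted p was 0.170 (unadjusted 0.000434), and the exact p of 0.00216 was the smallest that 6 against 6 mice can give.

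Gltp, the cytosolic glycolipid transfer protein that binds glycolipids and carries them between membranes, showed a smaller but tighter difference. The CSD mice ranged from 9.11 through a median of 9.19 to 9.25, against 9.40, 9.48 and 9.56 in HC mice. The groups were separate, with SDs of 0.07 in CSD and 0.06 in HC mice. The difference was −0.29 (SE 0.04, interval −0.38 to −0.20), or 18.3% lower in CSD, with a limma adjusted p of 0.0673 (unadjusted 1.06e-05), the lowest of the 10 genes, and an exact p of 0.00216. Its adjusted p was under 0.05 in 3 of the 23 alternative settings tried.

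Gal3st1, the sulfotransferase that turns galactosylceramide into sulfatide, differed little between the groups. Its values were 7.41, 7.46 and 7.51 (lowest, median, highest) in CSD mice and 7.30, 7.50 and 7.82 in HC mice, so that the CSD range lay inside the HC range. The difference was −0.05 (SE 0.07, interval −0.20 to 0.09; limma adjusted p = 0.885, exact p = 0.565). The lower end of this interval lay above the differences measured for Ugt8a, Fa2h and Gltp, and a difference between these genes was not tested. HC replicate 2 was the highest mouse, and without it the difference was 0.0068.

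Among the genes of ceramide synthesis, Cers2 encodes the ceramide synthase that attaches very long acyl chains. It had 9.23, 9.56 and 9.72 (lowest, median, highest) in CSD mice, against 9.75, 9.82 and 10.05 in HC mice. The groups were separate by a narrow gap. The difference was −0.34 (SE 0.08, interval −0.52 to −0.15), or 20.8% lower in CSD, with a limma adjusted p of 0.235 (unadjusted 0.00156) and an exact p of 0.00216. CSD replicates 9 and 10 were the lowest mice, at 9.35 and 9.23.

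The first step of the pathway is catalyzed by serine palmitoyltransferase, whose core subunits are encoded by Sptlc1 and Sptlc2. Sptlc2, the subunit that carries the catalytic site, had 9.73, 9.93 and 9.97 (lowest, median, highest) in CSD mice, against 9.97, 10.08 and 10.19 in HC mice, and the highest CSD mouse lay just below the lowest HC mouse. Its difference of −0.17 (SE 0.05, interval −0.28 to −0.06) was an 11.2% lower level in CSD, with a limma adjusted p of 0.314 (unadjusted 0.00433) and an exact p of 0.00216. Sptlc1 had 9.30, 9.42 and 9.53 in CSD mice, against 9.37, 9.41 and 9.63 in HC mice, with overlapping groups. Its difference was −0.03 (SE 0.05, interval −0.14 to 0.08; limma adjusted p = 0.929, exact p = 0.619), and without HC replicate 6, the highest mouse, it was 0.01. Whether the 2 subunits differed from each other in their response was not tested.

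Degs1, the desaturase that turns dihydroceramide into ceramide, had 9.98, 10.26 and 10.32 (lowest, median, highest) in CSD mice, against 10.19, 10.31 and 10.42 in HC mice. Apart from CSD replicate 8 at 9.98, every CSD mouse lay within the HC range. The difference was −0.09 (SE 0.06, interval −0.22 to 0.04; limma adjusted p = 0.751, exact p = 0.152).

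Ceramide also feeds sphingomyelin, and Sgms1 encodes the synthase that makes it in the Golgi apparatus. Its values were 9.52, 9.61 and 9.79 (lowest, median, highest) in CSD mice, against 9.58, 9.61 and 9.71 in HC mice, and the HC range lay inside that of the CSD mice. The difference was −0.0037 (SE 0.05, interval −0.11 to 0.10; limma adjusted p = 0.992, exact p = 0.937).

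Galc encodes the lysosomal galactosylceramidase that removes galactose from galactosylceramide and whose loss causes Krabbe disease. It was the only one of the 10 genes with a higher mean in CSD mice. Its values were 8.65, 8.72 and 8.98 (lowest, median, highest) in CSD mice, against 8.60, 8.74 and 8.94 in HC mice, with nearly coinciding ranges. The difference was 0.02 (SE 0.07, interval −0.13 to 0.17; limma adjusted p = 0.970, exact p = 0.775).

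**Figure D2:**
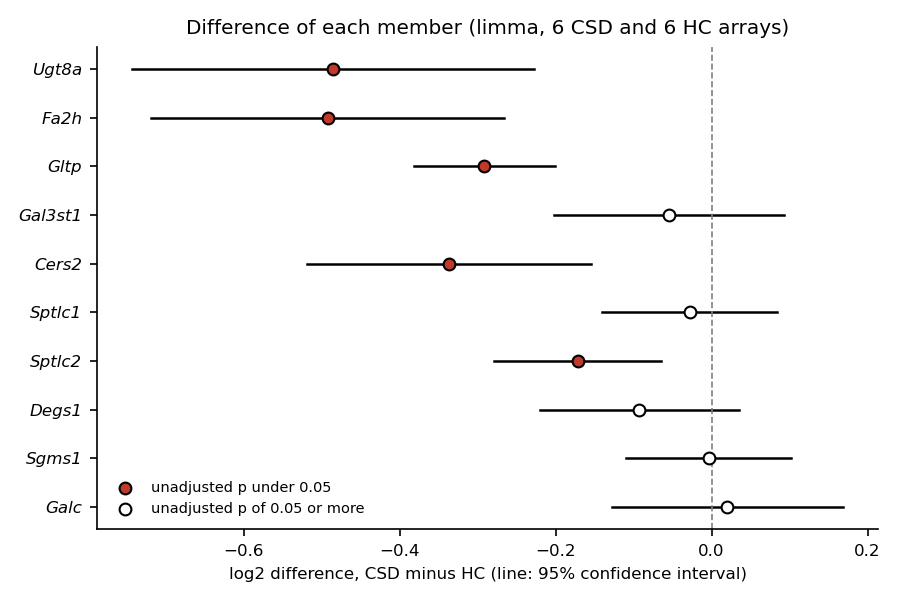
Log2 difference, CSD minus HC (horizontal axis), for each of the 10 genes (rows), with 95% confidence intervals from limma over 6 CSD and 6 HC arrays; filled points have an unadjusted p under 0.05. Ugt8a and Fa2h lie farthest from 0 at −0.49 each, Gltp has the narrowest interval of the 5 filled points, and the intervals of Gal3st1, Sptlc1, Degs1, Sgms1 and Galc span 0.

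The start sites of these genes were inspected for letters they share. RefSeq promoters (mouse build GRCm38.p6) were given here for 9 of the 10 genes, 15 promoters in all, and Fa2h had none in the table. The 250 bases before the start site are shown for 4 genes that were lower in CSD. Galc is shown as 1 example of the genes that were not, and it does not stand for all of them. Capitals mark the GC box GGGCGG, the letters bound by Sp family factors, and a SOX motif written as ACAANG. Each was sought on either strand (CCGCCC and CNTTGT on the other). ACAANG is a loose form of the letters bound by Sox factors such as Sox10 of oligodendrocytes. Its N accepts any base, so a match need not be a Sox site. The Ugt8a promoter was chr3:125938653-125938902 on the minus strand, that of Gltp chr5:114690936-114691185 on the minus strand, and the first of Cers2 chr3:95314940-95315189 on the plus strand. The Sptlc2 promoter was chr12:87388356-87388605 on the minus strand and that of Galc chr12:98259460-98259709 on the minus strand.
Ugt8a: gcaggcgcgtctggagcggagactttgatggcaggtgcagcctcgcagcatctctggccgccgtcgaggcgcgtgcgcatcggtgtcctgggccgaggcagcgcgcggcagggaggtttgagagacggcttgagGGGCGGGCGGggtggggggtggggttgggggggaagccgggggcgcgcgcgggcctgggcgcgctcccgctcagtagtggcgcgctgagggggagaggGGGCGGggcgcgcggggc
Gltp: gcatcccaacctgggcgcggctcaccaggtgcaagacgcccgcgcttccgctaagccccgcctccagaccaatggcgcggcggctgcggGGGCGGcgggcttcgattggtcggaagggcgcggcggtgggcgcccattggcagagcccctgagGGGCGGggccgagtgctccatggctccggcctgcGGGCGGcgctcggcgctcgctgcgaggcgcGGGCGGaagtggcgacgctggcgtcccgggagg
Cers2: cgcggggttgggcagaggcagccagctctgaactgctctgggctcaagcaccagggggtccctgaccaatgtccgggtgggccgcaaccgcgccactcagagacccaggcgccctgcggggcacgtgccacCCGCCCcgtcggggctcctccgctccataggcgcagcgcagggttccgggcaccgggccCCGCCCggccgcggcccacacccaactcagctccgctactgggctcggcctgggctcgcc
Sptlc2: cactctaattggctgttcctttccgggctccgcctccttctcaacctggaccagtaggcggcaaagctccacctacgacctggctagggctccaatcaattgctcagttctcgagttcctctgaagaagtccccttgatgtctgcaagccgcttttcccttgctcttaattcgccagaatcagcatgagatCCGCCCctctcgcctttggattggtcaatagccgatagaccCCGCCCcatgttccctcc
Galc: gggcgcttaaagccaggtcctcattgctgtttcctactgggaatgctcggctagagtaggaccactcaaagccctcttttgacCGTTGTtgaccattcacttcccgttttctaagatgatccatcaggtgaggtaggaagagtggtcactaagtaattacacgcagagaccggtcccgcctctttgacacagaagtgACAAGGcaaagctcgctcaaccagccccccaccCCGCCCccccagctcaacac
All 5 windows held a GC box, 3 in Ugt8a (of which a pair overlap), 4 in Gltp, 2 in Cers2, 2 in Sptlc2 and 1 in Galc, and 8 of the 15 promoters of the 10 genes held one, against 32.7% of 32851 promoters. The letters ACAANG stood in the window of Galc and in none of the other 4 shown, in 5 of the 15 promoters and in 36.3% of all promoters. In the 2 Galc matches N was C or G, and binding of a Sox factor there was not tested. Among the genes not shown, Gal3st1 and Degs1 had no GC box in any window, while Sptlc1 and Sgms1 had windows with one. Windows of Gal3st1, Sptlc1 and Sgms1 also held ACAANG. The E-box CAGCTG, which reads alike on both strands, was in 3 of the 15 and in 13% of all promoters, and CTGGNAC on either strand, the letters of the myelin regulatory factor Myrf, was in 1 of the 15 and in 16.1% of all. None of these motifs contains another. The first 2 windows of Gal3st1 overlap and hold the same ACAANG sites, and Sgms1 gave 4 windows, so the 15 promoters are not 15 separate cases. The share of G and C was 76.8% in the windows of Ugt8a and Gltp, 74.8% and 54% in those of Cers2 (of which the second held no GC box) and 55.2% in that of Sptlc2. In the windows of the genes that did not pass the unadjusted threshold it ran from 45.6% to 76%, with 54% in Galc, 69.6% in Degs1 and 76% in 1 of the 4 of Sgms1, so that it did not separate the kinds. These matches describe letters in short windows.

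Ratios at the branch points of the pathway were then compared within each mouse. The pairs were chosen with results of these data known, use Ugt8a 3 times and set genes lower in CSD against genes whose differences were near 0, so they put the single-gene differences side by side within a mouse and give no independent support. For this the log2 value of a gene was subtracted from that of another on the same array, which removes anything that scales a whole array. The absolute ratio has no meaning between probe sets, and only its difference between groups is read. Ugt8a over Ugcg compares the enzymes that put galactose or glucose on ceramide, and it was −0.72 ± 0.16 in CSD and −0.28 ± 0.22 in HC mice (SD, n = 6 each), with separate groups. The difference was −0.45 (exact permutation test, two-sided, p = 0.00216, 0.00361 after adjustment over the 5 ratios examined). Ugcg itself differed by −0.04.

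Ugt8a over Sgms1, the entry of ceramide into galactosylceramide set against its entry into sphingomyelin, was 0.05 ± 0.17 in CSD and 0.54 ± 0.29 in HC mice, a difference of −0.48 (exact p = 0.00866, adjusted 0.00866). Ugt8a over Galc, synthesis set against breakdown of the same lipid, was 0.92 ± 0.18 in CSD and 1.42 ± 0.28 in HC mice, a difference of −0.51 (exact p = 0.00866, adjusted 0.00866). In both ratios the groups overlapped, and all 6 CSD mice lay below the HC mean.

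Fa2h over Degs1, which act on the acyl chain and on the sphingoid base, was −1.35 ± 0.14 in CSD and −0.95 ± 0.16 in HC mice, a difference of −0.40 with separate groups (exact p = 0.00216, adjusted 0.00361). Cers2 over Cers6, the ceramide synthases of very long and of shorter acyl chains, was −1.29 ± 0.21 in CSD and −0.90 ± 0.07 in HC mice, a difference of −0.39 with separate groups (exact p = 0.00216, adjusted 0.00361). Cers6 itself had a mean difference of 0.05 (SE 0.04). Each of the 5 differences kept an adjusted p under 0.05 with any single array left out.

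**Figure D3:**
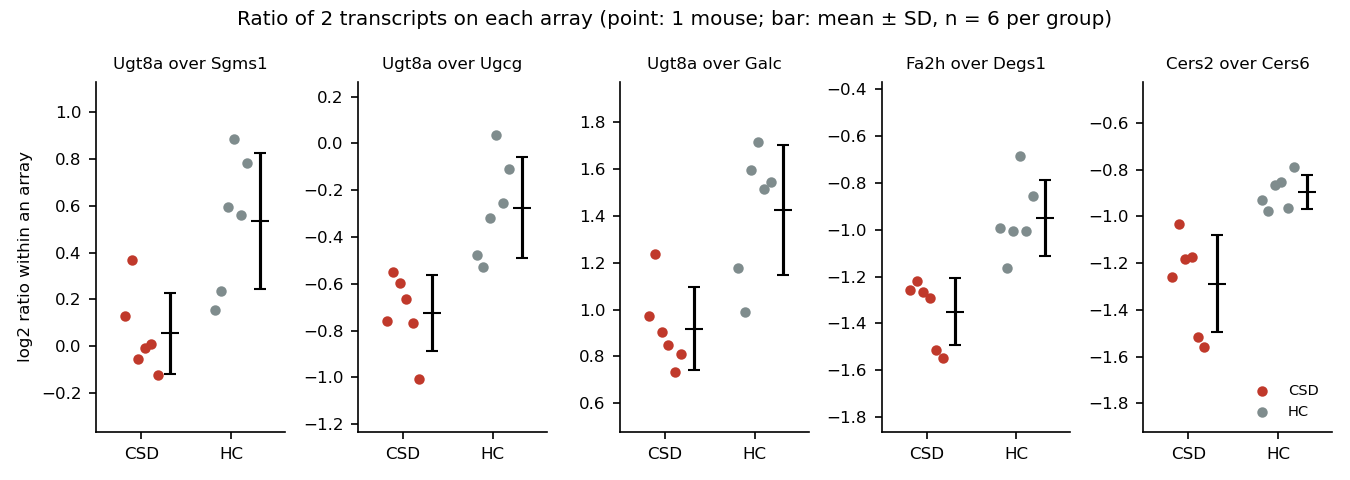
Log2 ratio of a pair of transcripts within each array (vertical axis) for the 5 pairs examined, 1 point per mouse, 6 CSD mice to the left of 6 HC mice, with the mean ± SD as a bar. CSD mice lie lower in every panel, by 0.39 to 0.51 on the log2 scale in the group means, and the groups are separate for Ugt8a over Ugcg, Fa2h over Degs1 and Cers2 over Cers6.

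The wider pathway was read from 7 lists that include the 10 genes. Of the 62 listed genes that are not among the 10, 58 were measured, 41 with a lower and 17 with a higher mean in CSD mice. A lower mean was found in 57.1% of all named genes. At an unadjusted p under 0.05, 6 of the 58 were lower (Papss1, Smpd1, Gm2a, Asah2, Cptp and Pltp) and 1 was higher (Hexa), shares to be set beside the 6.52% and 1.89% of all named genes, and 0 passed the adjusted threshold. Their median difference was −0.04. Whether these counts differ from those of the 10 genes was not tested.

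In galactolipid synthesis and supply, all 9 measured genes of 10 had a lower mean in CSD mice (median difference −0.12), as did 57.1% of all named genes. Of the 9, 4 were lower at an unadjusted p under 0.05, against 6.52% of all named genes. The 4 were Ugt8a, Fa2h, Gltp and Papss1, a synthase of the sulfate donor used for sulfatide. Papss1 averaged −0.12 (SE 0.04, limma adjusted p = 0.457, exact p = 0.0152). Papss2, another such synthase, had a larger and more variable difference of −0.23 (SE 0.12, limma adjusted p = 0.659, exact p = 0.0606). Its SD was 0.32 in CSD and 0.07 in HC mice. Ugp2, which makes UDP-glucose, the precursor of UDP-galactose, had a difference of −0.11 (SE 0.06, exact p = 0.0844). Ceramide and glycolipid transfer had the most negative median of the 7 lists, −0.23 over 5 measured genes of 5, with 4 lower means. Of its genes 3 were lower at an unadjusted p under 0.05, as were 6.52% of all named genes.

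Those 3 transfer genes were Gltp, Cptp and Pltp. Cptp, a relative of Gltp that carries ceramide-1-phosphate, was 8.01 ± 0.07 in CSD and 8.24 ± 0.07 in HC mice (SD, n = 6 each), with separate groups. Its difference was −0.23 (SE 0.04, limma adjusted p = 0.132, exact p = 0.00216). Pltp is known for moving phospholipids between lipoproteins and so does not do what the list's name says. It was 9.47 ± 0.16 in CSD and 9.80 ± 0.11 in HC mice, a difference of −0.33 (SE 0.08, limma adjusted p = 0.188, exact p = 0.00433). The median of this list thus leans on Pltp and on Gltp, which is among the 10 genes. Beside Cptp, its remaining genes were Cert1 (−0.06) and Plekha8 (0.02).

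De novo ceramide synthesis, by contrast, was represented by 16 measured genes of 17 with a median difference of −0.04. The mean was lower in CSD mice for 13 genes and higher for 3, where 57.1% of all named genes had a lower mean. At an unadjusted p under 0.05, 2 were lower, both among the 10 genes (Cers2 and Sptlc2), against 6.52% of all named genes. Sptssb, a small activating subunit of serine palmitoyltransferase, had the smallest limma p of the genes outside the 10, with a difference of −0.12 (SE 0.08, exact p = 0.175).

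Among all named genes, 57.1% had a lower mean in CSD, and 6.52% were lower and 1.89% higher at an unadjusted p under 0.05. Sphingomyelin synthesis and hydrolysis (7 measured of 7, median difference −0.0032) had 4 lower and 3 higher means. The 1 gene past an unadjusted limma p of 0.05 was Smpd1, the acid sphingomyelinase of lysosomes, with −0.10 (SE 0.04, limma adjusted p = 0.553, exact p = 0.0455), beside Smpd3, a neutral sphingomyelinase, with −0.10 (SE 0.05, limma adjusted p = 0.656, exact p = 0.0368). Glucosylceramide and ganglioside synthesis (10 of 10, median −0.03) had 6 lower and 4 higher means and 0 genes past the unadjusted threshold. B4galt5, a lactosylceramide synthase, came nearest with −0.09 (SE 0.05, exact p = 0.0671), followed by B3galt4, which acts in the making of complex gangliosides, with 0.06 (SE 0.04, exact p = 0.141).

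The same shares of all named genes apply to the last lists (57.1% with a lower mean, 6.52% lower and 1.89% higher past the unadjusted threshold). Lysosomal breakdown of glycosphingolipids (11 measured of 13, median −0.0022) had 7 lower and 4 higher means and 1 gene past the unadjusted threshold in each direction. Both act on ganglioside GM2. Gm2a, its activator protein, was 10.72 ± 0.03 in CSD and 10.85 ± 0.05 in HC mice (SD, n = 6 each), with separate groups and a difference of −0.13 (SE 0.03, limma adjusted p = 0.235, exact p = 0.00216). Hexa, the alpha subunit of the hexosaminidase that works with it, was 9.58 ± 0.08 in CSD and 9.43 ± 0.11 in HC mice, a difference of 0.15 (SE 0.05, limma adjusted p = 0.453, exact p = 0.0281). Ceramidases and sphingosine metabolism (11 of 11, median −0.03) had 8 lower and 3 higher means. Asah2, the neutral ceramidase, was the 1 gene past the unadjusted threshold, with −0.16 (SE 0.05, limma adjusted p = 0.344, exact p = 0.00866), and Acer1, an alkaline ceramidase, had 0.11 (SE 0.05, exact p = 0.0693).

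**Figure D4:**
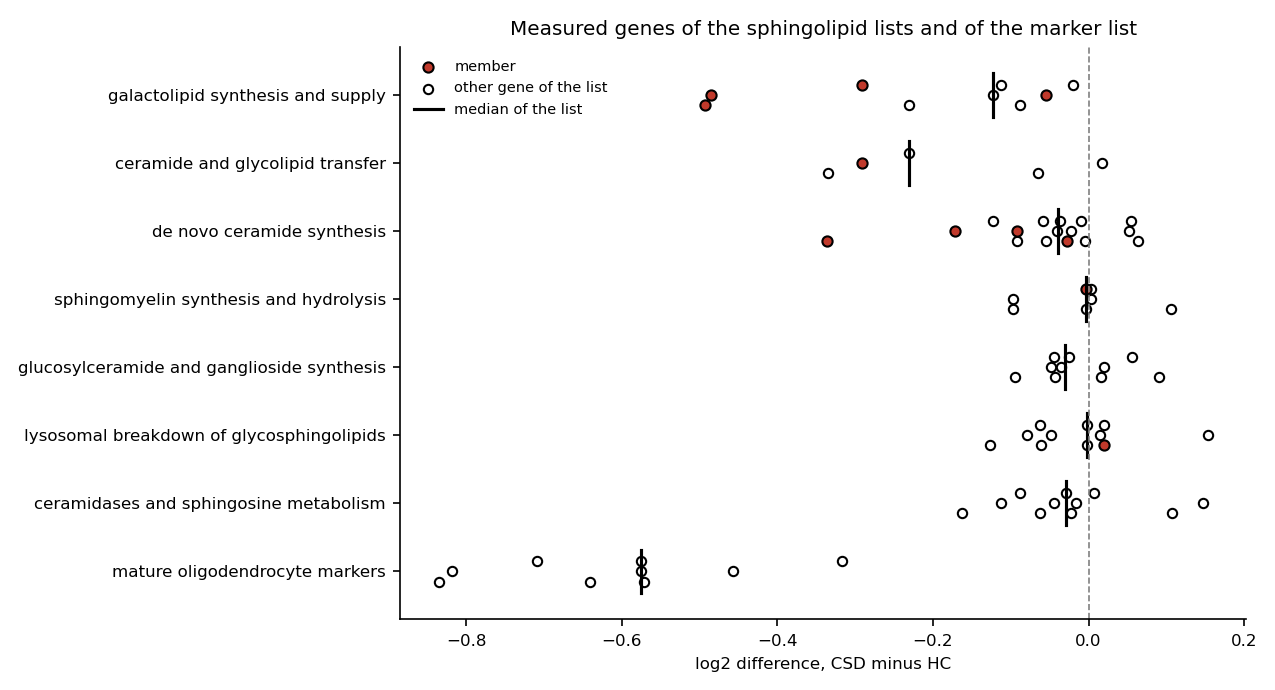
Log2 difference, CSD minus HC (horizontal axis), of every measured gene of the 7 sphingolipid lists and of the mature oligodendrocyte markers (rows), 1 point per gene, with the 10 genes filled and the list median as a vertical bar. The points farthest to the left in the sphingolipid rows are Ugt8a and Fa2h at −0.49, the medians of the 7 lists run from −0.23 to −0.0022, and the markers lie between −0.84 and −0.32.

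The lower galactolipid genes were accompanied by lower markers of mature oligodendrocytes. All 9 measured of 10 such markers were lower at an unadjusted p under 0.05, against 6.52% of all named genes. In 6 of them every CSD mouse lay below every HC mouse, as in 0.935% of named genes. The 9 markers differed by −0.84 to −0.32, with a median of −0.58. Their summed level ranged from log2 12.89 to 13.40 in CSD mice and from 13.41 to 13.95 in HC mice. In bulk tissue, fewer cells of a type and less RNA per cell cannot be told apart, and the part of these cells in the differences of the 10 genes was not tested. Every difference among the 10 genes was smaller in size than the marker median, those of Ugt8a and Fa2h being closest to it.

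Lists of other cell types had median differences nearer to 0. Their counts stand beside the 57.1% of all named genes with a lower mean in CSD. At an unadjusted p under 0.05, 6.52% of all named genes were lower and 1.89% higher. Oligodendrocyte precursor markers (8 of 8) had a median of −0.01, with 5 lower and 3 higher means and 2 lower at an unadjusted p under 0.05 (Gpr17 and Lhfpl3), and a summed level of log2 12.19 to 12.38 in CSD and 12.28 to 12.40 in HC mice. Neuron markers (10 of 10) had a median of −0.0065 and 0 past that threshold in either direction. Astrocyte markers (8 of 8) had a median of −0.08, 7 lower means and 2 lower at an unadjusted p under 0.05 (Aqp4 and S100b), with sums of 14.62 to 14.65 in CSD and 14.60 to 14.71 in HC mice. Microglia markers (8 of 9) had a median of −0.05, 7 lower means and 1 past the threshold (P2ry12), with sums of 12.22 to 12.34 in CSD and 12.28 to 12.46 in HC mice.

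Markers of tissue that a dissection could include were also compared, again beside the 6.52% of all named genes lower at an unadjusted p under 0.05. Endothelial and mural markers (8 of 8, median −0.05) summed to 11.64 to 11.91 in CSD and 11.75 to 12.01 in HC mice, and choroid plexus and meningeal markers (7 of 7, median −0.0065) to 10.27 to 10.73 in CSD and 10.15 to 10.58 in HC mice, with 0 genes past an unadjusted p of 0.05 in both lists. Striatal neuron markers (4 of 6, median −0.12) summed to 10.89 to 11.34 in CSD and 10.97 to 11.28 in HC mice, with 1 lower at that threshold (Drd1). Of 4 red blood cell markers only Alas2 was measured alone by a probe set, at log2 6.87 to 7.44 in CSD and 6.71 to 7.35 in HC mice. In each of these lists the ranges of CSD and HC mice overlapped.

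Within the groups, Ugt8a and Fa2h moved with the oligodendrocyte markers from mouse to mouse. For each array the deviation from its group mean was taken, so that the difference between CSD and HC plays no part, and 55 relations were computed (45 pairs of the 10 genes and each gene with the mean of the 9 markers). Ugt8a correlated with the markers at r = 0.897 over 12 arrays (permutation within groups, p = 0.00029, adjusted 0.00935), with a Spearman rho of 0.902 (permutation p = 0.00039, adjusted 0.019). Without the 2 arrays farthest from the median of the markers r was 0.862, and it was 0.883 within CSD and 0.955 within HC mice. Fa2h correlated with the markers at r = 0.887 (permutation p = 0.00112, adjusted 0.0205) and rho = 0.874 (permutation p = 0.00114, adjusted 0.0209), with 0.852 without the 2 farthest arrays, 0.908 within CSD and 0.872 within HC mice.

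Ugt8a and Fa2h also correlated with each other, at r = 0.866 (permutation p = 0.00034, adjusted 0.00935) and rho = 0.888 (permutation p = 0.00069, adjusted 0.019). For this pair r was 0.803 without the 2 arrays farthest from the median of Ugt8a, 0.807 within CSD and 0.938 within HC mice. These 3 relations were the only ones of the 55 with an adjusted p under 0.05, although 38 of the 45 pairs had an r above 0. With the markers, Cers2 had r = 0.719 and Gltp r = 0.631 (adjusted permutation p = 0.092 and 0.168). Within CSD and within HC mice these were 0.845 and 0.640 for Cers2 and 0.677 and 0.596 for Gltp. Sptlc2 had r = −0.0053 over the 12 arrays, which joins opposite signs in the groups (0.500 within CSD and −0.504 within HC mice). Its r was 0.400 without the 2 arrays farthest from the median of the markers. Galc had 0.086, with −0.162 within CSD and 0.286 within HC mice. The 12 arrays share their normalization, which bears on all such relations.

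**Figure D5:**
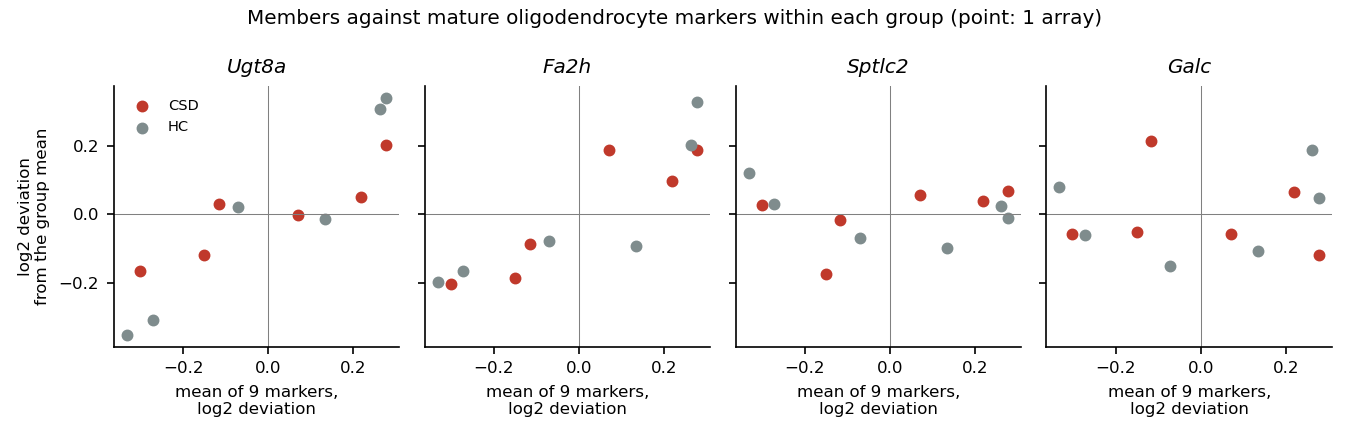
Log2 deviation from the group mean of Ugt8a, Fa2h, Sptlc2 and Galc (vertical axes) against that of the mean of 9 mature oligodendrocyte markers (horizontal axes), 1 point per array, CSD and HC mice in different colors. Ugt8a (r = 0.897) and Fa2h (r = 0.887) rise along the marker axis in both groups, while Galc (r = 0.086) shows little slope. Sptlc2 (r = −0.0053) has an r of 0.500 in CSD and −0.504 in HC mice, a contrast that was not tested.

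The named genes whose deviations were most like those of Ugt8a, by Pearson's r over the 12 arrays and as a description, were Tle4 (0.954), Ppp2r5c (0.938), Cyb5a (0.935), Opalin (0.926) and Ermn (0.922). Of these, Opalin and Ermn are markers of mature oligodendrocytes and differed by −0.58 and −0.82 between CSD and HC mice, while Tle4, Ppp2r5c and Cyb5a differed by −0.15, −0.02 and −0.0092. The genes most like Galc were Alg13 (0.964), Dusp11 (0.947), Mex3c (0.943), Mir543 (0.938) and Mri1 (0.935), with differences between −0.13 and 0.14. No gene was shared by the lists of Ugt8a and Galc.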

How the data were processed

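The authors deposited log2 values for 35556 probe sets on 12 Affymetrix Mouse Gene 1.0 ST arrays, made by robust multi-array average (RMA) normalization in the Affymetrix Expression Console, which corrects background, equalizes the arrays and summarizes probes. No versions were found in the sources, and RMA compresses large differences between dim probe sets. As in the methods, probe sets without a value above system noise were left out and lower values raised to it. Since no noise value is stated, it was set at the 20th percentile of the table, 5.75, which kept 29838 probe sets and raised 4.67% of their values. CSD and HC were compared with limma 3.58.1 in R 4.3.3 (two-sided, no covariate, Benjamini-Hochberg over the probe sets kept), and single values and within-array ratios with exact permutation tests. Arrays have no read depth, and the number of mice limits the precision. In the platform annotation (2016), 21789 probe sets name exactly 1 gene, 1621 name more and 12146 name no gene, and only the first kind was used for naming.

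The 10 genes, the 7 sphingolipid lists and the 9 cell type marker lists were chosen with earlier results of these data known. Beside the 10, the text names the partners in the ratios, the 2 other genes of each sphingolipid list with the smallest p, and the 5 genes most like Ugt8a and Galc. It also names marker genes past an unadjusted p under 0.05 in lists where 2 or fewer were, which were chosen after their values were seen. Papss2, Cert1, Plekha8 and Alas2 are named outside these rules, to complete what is said of their lists. Some listed genes were not analysed here. The limma test was tested on simulated data with the size of this comparison (29838 probe sets). It called 26 of 50 changed by 1.25-fold, 47 by 1.5-fold, 50 by 2-fold and 50 by 3-fold, with 5 false calls. The simulated noise was independent between probe sets, and the changes were placed on randomly drawn probe sets. These counts therefore check the code and do not give the power in the real data, where 0 named genes had an adjusted p under 0.05. Alternatives were another filter, noise level, scaling, variance model, array weighting, test, probe set rule, a replicate block and arrays left out. Plots were made in Python 3.11.15 (matplotlib 3.10.9).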

Additional observations from a re-analysis of the deposited data

Results flagged for a closer look

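In 3 of 30 sets of 6 values checked (the 10 genes and 5 ratios, each in CSD and in HC mice), 1 mouse lay so far from the others that its gap to the nearest mouse exceeded Dixon's 95% limit for 6 values, taken as a share of the group's range, which chance alone does in about 1 in 20 such sets. Degs1 was 9.98 in CSD replicate 8, with the next lowest CSD mouse at 10.22 (gap 0.701 of the range). Sptlc2 was also lowest in CSD replicate 8, at 9.73, with the next at 9.88 (0.649). Sptlc1 was highest in HC replicate 6, at 9.63, with the next at 9.44 (0.718).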

How the results depend on the processing

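The differences of Degs1 and Gal3st1 could not be told from 0 given the spread of these genes among 6 mice per group, and the arrays measure relative levels of transcripts, not lipids or enzyme activity. The count of the 10 genes called lower in CSD, 0 as reported, was 1 (Gltp) with only probe sets of 1 gene (limma adjusted p = 0.0193), with quantile normalization (0.0482) and with robust variances that follow the mean (0.0345), settings in which 24, 1 and 14 of all named genes had an adjusted p under 0.05. Over all 23 alternatives its adjusted p ran from 0.0193 to 1, and it was 0.0532 to 0.219 with 1 array left out. The number lower at an unadjusted p under 0.05 stayed at 5 with any 1 array left out, and it was 1 (Gltp) with the replicate number as a replicate block. Only numbers 2 and 6 are shared by CSD and HC mice, so the block setting compares the groups through those 2 pairs alone. The deviations of those pairs from their group means correlated at −0.298 and −0.0227. With 2 values, whether the numbers pair the mice cannot be decided. Differences near 0 changed sign, namely Sgms1 with quantile normalization (0.0098), Galc with the replicate block (−0.20), and Sptlc1 without HC replicates 2 and 6 together (0.0094). With 1 array left out, Gal3st1 ran from −0.10 to 0.0068 (above 0 without HC replicate 2), Sptlc1 from −0.052 to 0.011 (above 0 without HC replicate 6), Sgms1 from −0.036 to 0.018 and Galc from −0.023 to 0.058. Ugt8a, Fa2h, Cers2, Gltp, Degs1 and Sptlc2 were lower in CSD under all 23 alternatives. Averaging the probe sets of a gene changed nothing for the 10, since each has 1.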
